A study of Rattus norvegicus with 12 samples.

Results

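The oligoadenylate synthetase family of the rat was followed through its 6 rows Oas1a (NCBI gene 192281), Oas1b (246268), Oas2, Oas3, Oasl (304545) and Oasl2 (304549), which were picked by gene symbol from the 18483 genes of the expression tables. RNA had been sequenced from neonatal rat ventricular myocytes (NRVMs), cultured heart muscle cells prepared from Sprague-Dawley pups within 3 days of birth. All 12 cultures carried an siRNA, either the control siNeg or siSlc39a2, which targets the zinc importer Slc39a2, and each was kept without or with phenylephrine (PE), an adrenergic agonist that makes these cells grow. PE was added 12 h after transfection and left for 36 h, so that the control cells form the groups siNeg and siNeg PE and the knockdown cells the groups siSlc39a2 and siSlc39a2 PE, each of 3 independent cultures. The study lists a single siRNA sequence against Slc39a2, so that effects of this duplex and effects of the loss of Slc39a2 cannot be told apart.

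Oligoadenylate synthetases are sensors of double-stranded RNA. On binding it, the active enzymes join ATP into short oligoadenylates with an unusual linkage, which act as a signal that leads to the cutting of RNA in the cell and slows viral growth. The genes are classical targets of interferon, which acts through transcription factors at interferon-stimulated response elements. Oas1a and Oas1b belong to a cluster of Oas1 copies, Oas2 and Oas3 are longer proteins built from repeated units, and Oasl and Oasl2 are OAS-like proteins with ubiquitin-like domains at their end.

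The promoters show how alike the Oas1 copies are and where they differ. In RefSeq (GRCr8), all 6 genes lie on chromosome 12, in the order Oas1a, Oas1b, Oas3 and Oas2, then, 60 protein-coding genes further on, Oasl and Oasl2. Of the 6, 5 had a promoter sequence, and Oas2 had none. The core of the interferon-stimulated response element was searched on both strands as GAAA, then any 2 bases, then GAAA, from 250 bases before the start site to 50 bases after it. It was found in 3.92% of all 33469 promoters. Below are 50 bases of some of the Oas1 promoters around a shared ccgccc, written on the strand of the gene, with matches to that motif in capitals. Oas1i, Oas1d and Oas1h are further copies in the tables and are shown for comparison.
Oas1a, chr12:41330402-41330451, plus strand: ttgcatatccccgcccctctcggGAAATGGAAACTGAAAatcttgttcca
Oas1b, chr12:41395885-41395934, minus strand: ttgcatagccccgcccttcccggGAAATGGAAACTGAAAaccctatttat
Oas1i, chr12:41285167-41285216, plus strand: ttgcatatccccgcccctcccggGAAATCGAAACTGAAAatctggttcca
Oas1d, chr12:41318583-41318632, minus strand: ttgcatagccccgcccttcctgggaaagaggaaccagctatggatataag
Oas1h, chr12:41354018-41354067, minus strand: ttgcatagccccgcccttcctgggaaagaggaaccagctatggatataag

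Oas1a and Oas1b each held 2 overlapping matches, which ran from base -41 to -26 of Oas1a and from -59 to -44 of Oas1b, counted from the start site. Position by position, 41 of the 50 bases of Oas1b equalled those of Oas1a, against 47 in Oas1i and 30 in both Oas1d and Oas1h. In the promoters of Oas1e and Oas1f, which are not shown, 28 and 25 bases did. Oas1d, Oas1h, Oas1e and Oas1f held no match to the core. A match is a description of letters and not evidence of binding.

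The members outside the Oas1 cluster differed in the same window. The 160 bases before the start of Oas3 and Oasl2 and the 250 bases before the start of Oasl are shown because the first pair held 1 match each and Oasl held none.
Oas3, chr12:41439572-41439731, plus strand: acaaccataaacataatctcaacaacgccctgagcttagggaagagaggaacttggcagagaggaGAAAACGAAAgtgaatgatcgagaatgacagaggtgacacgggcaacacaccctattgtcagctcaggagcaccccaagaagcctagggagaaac
Oasl2, chr12:47383186-47383345, minus strand: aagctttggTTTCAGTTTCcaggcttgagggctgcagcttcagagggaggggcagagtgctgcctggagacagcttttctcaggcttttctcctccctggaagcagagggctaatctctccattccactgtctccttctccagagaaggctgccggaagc
Oasl, chr12:47356293-47356542, minus strand: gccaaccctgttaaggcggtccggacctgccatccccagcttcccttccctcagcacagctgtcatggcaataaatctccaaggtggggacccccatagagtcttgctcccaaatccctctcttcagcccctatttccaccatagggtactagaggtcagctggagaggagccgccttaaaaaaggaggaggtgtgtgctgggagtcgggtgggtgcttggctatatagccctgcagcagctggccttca

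The match of Oas3 lay from base -95 to -86, and that of Oasl2 from -151 to -142 on the opposite strand. A second, palindromic motif, TTCNNNGAA, stood in 8.87% of all promoters. Among the members it was found once in Oas1a, from -199 to -191, and once in Oas1b, from -213 to -205. These letters are not in the windows of Oas3, Oasl and Oasl2.

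**Figure D1:**
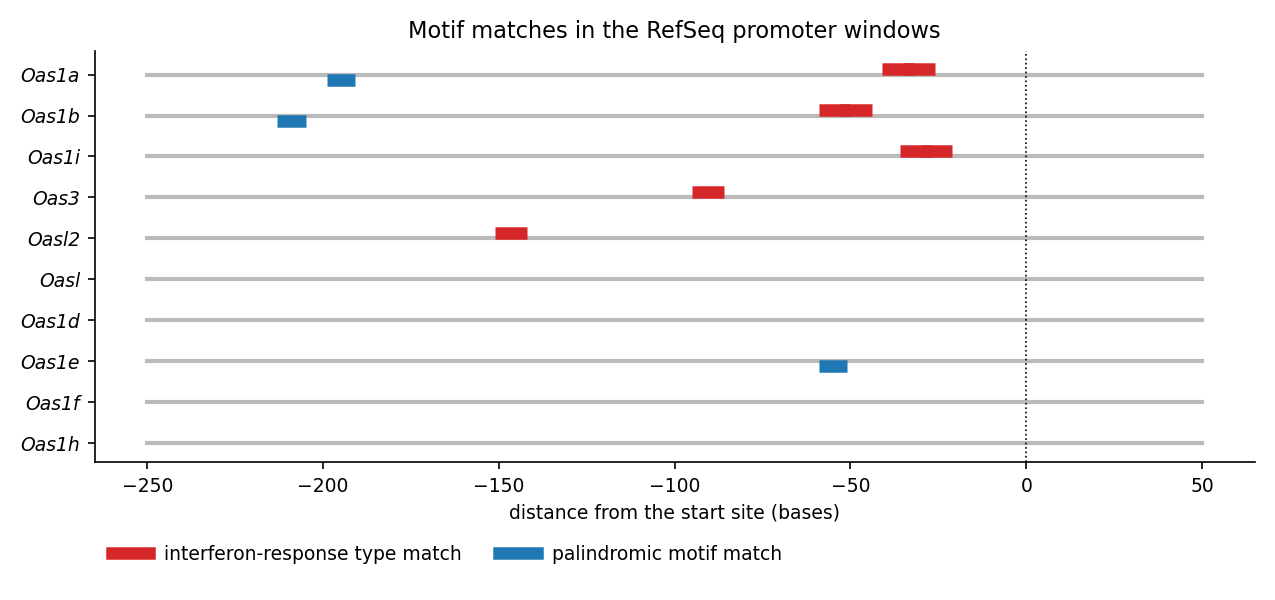
Motif matches in the promoter windows of 10 family genes. The horizontal axis is the distance from the start site in bases, each grey line is 1 window, red bars are matches to the core of the interferon-stimulated response element and blue bars TTCNNNGAA matches. The red bars of Oas1a, Oas1b and Oas1i lie within 60 bases of the start site, and those of Oas3 and Oasl2 lie further upstream.

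Total expected counts per library were between 24065539 and 28603854. The targeted gene Slc39a2 was lower after knockdown, at 2 to 21 counts against 50 to 59 without PE (log2 fold change -2.35 ± 0.46, SE, adjusted p = 0.00098) and at 25 to 38 against 95 to 198 with PE (-2.33 ± 0.38, adjusted p = 0.000224). All 8 cardiomyocyte markers were expressed, with summed FPKM between 10892 and 13843. The summed FPKM of 7 fibroblast markers was 1983 to 2592 in siNeg and 849.9 to 923 in siSlc39a2, and with PE it was 1436 to 1837 in the control and 579.9 to 799.5 in the knockdown cells. In each knockdown comparison 3 of these 7 and 1 of the 8 cardiomyocyte markers were called lower. Of all genes, 5.21% were called lower without PE and 5.58% with PE. Without PE, 1 of 5 endothelial and 1 of 6 macrophage markers tested were called lower too. Macrophage markers, 6 of 7 listed, summed to 10.9 to 13.5 in siNeg and 6.79 to 7.76 with PE added, and to 8.98 to 9.21 in siSlc39a2 and 4.99 to 5.60 with PE added. The sum of 5 mural cell markers was 107.8 to 125.6 in siNeg and 74.3 to 85.0 in siSlc39a2, and with PE 96.9 to 106.5 in the control and 81.2 to 84.6 in the knockdown cells. Of 6 markers of plasmacytoid dendritic cells and lymphocytes, 2 were listed and only Tcf4 had more than 3 counts in every library. The sum of these 2 was higher in knockdown cells, at 3.65 to 4.24 in siNeg and 4.90 to 5.76 in siSlc39a2. With PE it was 4.74 to 5.49 in the control and 6.71 to 8.60 in the knockdown cells. The 1 marker tested was called in neither knockdown comparison. The part of these cell types in the results below was not tested, and in these bulk samples fewer cells of a type and less RNA per cell cannot be told apart.

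All 6 oligoadenylate synthetase genes were higher after Slc39a2 knockdown, both without and with PE, by between 5.75-fold and 131-fold in the fitted model. FPKM, which are scaled to gene length and sequencing depth, are used below for levels. Fold changes are from edgeR's quasi-likelihood test on the counts, with Benjamini-Hochberg adjustment over 13967 genes. A gene was called at a log2 fold change beyond 1 in size and an adjusted p below 0.05.

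Oas1a, a typical interferon-induced synthetase, had 2.14, 2.92 and 1.63 FPKM in siNeg and 333, 331 and 310 FPKM in siSlc39a2. With PE it had 3.35, 2.73 and 3.19 FPKM in siNeg PE and 221, 204 and 205 FPKM in siSlc39a2 PE. The control and knockdown samples were far apart, and Oas1a had log2 fold changes of 7.04 ± 0.15 (SE, adjusted p = 1.60e-12) without PE and 6.07 ± 0.14 (adjusted p = 4.02e-12) with it. Oas1b, which in mice is known as a flavivirus resistance gene, had a higher level in siNeg and a smaller fold change. It had 3.82, 6.09 and 5.27 FPKM in siNeg and 165, 158 and 145 FPKM in siSlc39a2. In the PE groups it had 5.63, 5.81 and 5.82 FPKM against 99.1, 94.1 and 97.0 FPKM. Again no sample of a knockdown group came near a control sample, and the log2 fold changes of Oas1b were 4.81 ± 0.12 (adjusted p = 5.16e-12) without PE and 4.06 ± 0.12 (adjusted p = 2.51e-11) with PE.

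Oasl, the rat gene of an OAS-like protein that is thought to lack synthetase activity, had 2.55, 4.32 and 5.03 FPKM in siNeg and 313, 288 and 262 FPKM in siSlc39a2. With PE it had 3.06, 2.79 and 3.31 FPKM in siNeg PE and 113, 107 and 121 FPKM in siSlc39a2 PE. The groups did not overlap, and Oasl had log2 fold changes of 6.05 ± 0.18 (adjusted p = 1.59e-11) and, with PE, of 5.21 ± 0.17 (adjusted p = 7.30e-11). Its neighbour Oasl2 had 1.50, 1.98 and 1.50 FPKM in siNeg and 93.2, 90.0 and 98.4 FPKM in siSlc39a2. In the PE groups it had 1.63, 2.41 and 2.61 FPKM against 67.4, 69.7 and 89.1 FPKM. Oasl2 was higher in every knockdown sample than in any control sample, with a log2 fold change of 5.71 ± 0.16 (adjusted p = 1.52e-11) without PE and 5.10 ± 0.16 (adjusted p = 3.96e-11) with PE.

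Oas2 and Oas3 were close to silent in the control cells, so their counts are given. For Oas2 the siNeg samples gave 2, 9 and 4 counts and the siSlc39a2 samples 831, 759 and 574. With PE, 9, 7 and 1 counts in the control cells stood against 447, 481 and 519 in the knockdown cells. The ratio of the summed counts, scaled to library size, was 132 without PE (95% counting interval 80.0 to 237) and 84.6 with PE (52.7 to 146). Oas2 thus went from a handful of reads to a clear signal, with a log2 fold change of 7.01 ± 0.31 (adjusted p = 1.07e-09) and 6.37 ± 0.30 (adjusted p = 3.08e-09). Oas3, the longest member of the family, stayed low in all groups. Without PE its expected counts were 2, 2.11 and 1 in the control and 18, 34 and 17.5 in the knockdown cells. With PE they were 3.23, 3 and 2.12 in the control and 16.3, 15 and 17 in the knockdown cells. The ratio of summed counts was 12.7 (5.17 to 40.2) without PE and 5.97 (2.80 to 14.6) with PE, so that at this depth the size of the Oas3 change is known only loosely. Its log2 fold change was 3.56 ± 0.43 (adjusted p = 2.05e-05) and 2.52 ± 0.41 (adjusted p = 0.0002). Counting intervals leave out the spread between cultures.

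**Figure D2:**
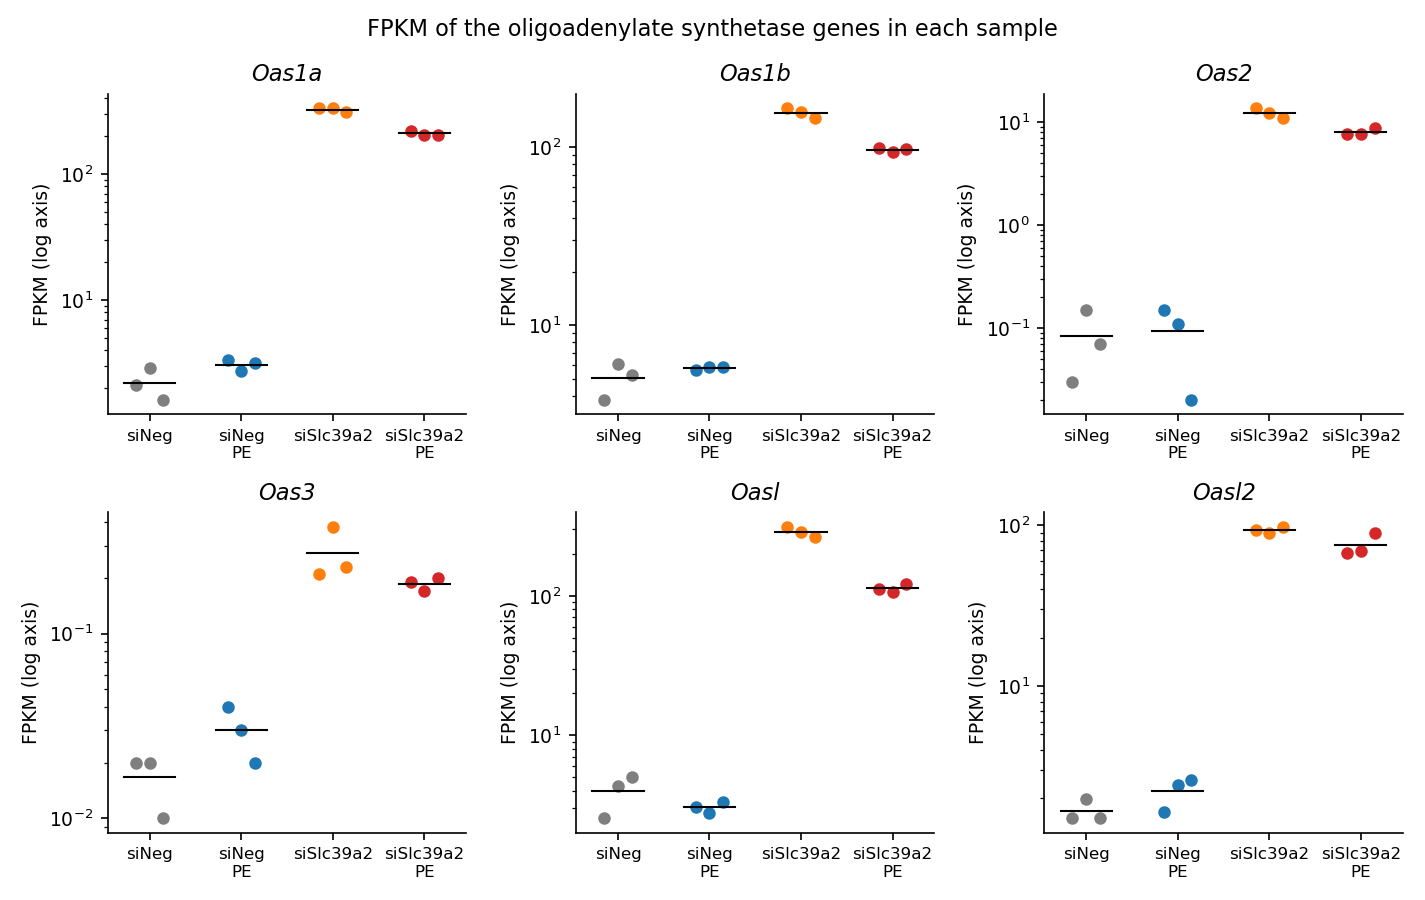
FPKM of the 6 genes in each sample, on log axes. Each point is 1 of 3 samples of a group and the black line is the group mean. For every gene the siSlc39a2 and siSlc39a2 PE points lie above all siNeg and siNeg PE points.

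Of all genes tested, 4.57% were called higher without PE and 6.03% with PE, and all 6 family genes were called in both comparisons with no overlap between the groups, which 27.9% and 31.8% of all genes also showed upwards. For Oas1a, 0.315% of genes had a larger change in either direction without PE, for Oas2 0.329%, for Oasl 0.594%, for Oasl2 0.694%, for Oas1b 0.924% and for Oas3 1.37%. Oas2 and Oas3 passed the filter on low counts only through the siSlc39a2 libraries, so a change was needed for them to be tested at all. The other 4 members passed it in every control library as well.

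PE alone did not move the family past the threshold. Its effect in siNeg cells was a log2 fold change of 0.39 ± 0.17 for Oas1a (adjusted p = 0.0738), 0.11 ± 0.12 for Oas1b (0.49), 0.35 ± 0.18 for Oasl2 (0.125) and -0.46 ± 0.18 for Oasl (0.0536), and the siNeg and siNeg PE samples overlapped for all 6 genes (29.3% of all genes lay apart upwards and 30.5% downwards). The low counts of Oas2 and Oas3 left wide errors, at 0.08 ± 0.59 and 0.54 ± 0.60. In this comparison 3.80% of all genes were called higher and 2.80% lower. Single control libraries decided the adjusted p of 3 genes. Without siNeg replicate 2 that of Oas1a was 0.00848 (log2 fold change 0.62), without siNeg replicate 1 that of Oasl was 0.0015 (-0.68), and without siNeg PE replicate 1 that of Oasl2 was 0.026 (0.51).

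In the knockdown cells, PE was accompanied by lower levels of most of the family, and Oasl changed most. Oasl went from a mean of 288 ± 25.7 FPKM (SD, n = 3) in siSlc39a2 to 113 ± 6.99 FPKM in siSlc39a2 PE, and its log2 fold change was -1.29 ± 0.14 (adjusted p = 8.76e-06). It was the single member called, in a comparison in which 4.17% of all genes were called lower. Oas1a went from 325 ± 13.0 to 210 ± 9.69 FPKM, a log2 fold change of -0.58 ± 0.11 (adjusted p = 0.00062). Oas1b went from 156 ± 10.4 to 96.7 ± 2.53 FPKM (-0.64 ± 0.10, adjusted p = 0.000195). Both passed the adjusted p but not the limit on the size of the change, as did Oas2, which went from 12.3 ± 1.40 to 8.02 ± 0.615 FPKM (-0.56 ± 0.18, adjusted p = 0.0167). That Oas2 passed the adjusted p rested on single libraries. Its adjusted p was 0.0882 without siSlc39a2 replicate 1, 0.0514 without siSlc39a2 replicate 2 and 0.0619 without siSlc39a2 PE replicate 2.

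Oasl2 and Oas3 did not pass in that comparison. Oasl2 had 93.9 ± 4.26 FPKM in siSlc39a2 and 75.4 ± 11.9 in siSlc39a2 PE, with 1 PE sample at 89.1 FPKM close to the samples without PE, and a log2 fold change of -0.27 ± 0.12 (adjusted p = 0.0807). Without that sample, siSlc39a2 PE replicate 3, it was -0.40 (adjusted p = 0.0119). Oas3 had 0.273 ± 0.0929 and 0.187 ± 0.0153 FPKM (-0.50 ± 0.29, adjusted p = 0.158). By the adjusted p alone, 4 of the 6 genes were lower with PE, against 29.3% of all genes, and 5 were lower without overlap of the samples, against 32.7%.

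The knockdown effect was therefore compared directly between cells with and without PE, as an interaction. Its log2 value, the knockdown effect with PE less that without PE, was -0.97 ± 0.20 for Oas1a (adjusted p = 0.0189) and -0.74 ± 0.16 for Oas1b (adjusted p = 0.0222), which passed the adjusted p but not the limit on size. At the adjusted p alone, 1.88% of all genes were below zero. For Oasl it was -0.83 ± 0.23 (0.065), for Oasl2 -0.61 ± 0.22 (0.173), for Oas2 -0.64 ± 0.63 (0.694) and for Oas3 -1.04 ± 0.68 (0.576), none of which passed. These values rest on small margins. The adjusted p of Oas1a was 0.0611 without siNeg PE replicate 1, 0.0545 without siSlc39a2 replicate 1 and 0.0515 without siSlc39a2 PE replicate 2. That of Oas1b was between 0.0529 and 0.0685 without siNeg PE replicate 1 or 2, siSlc39a2 replicate 1 or 2, or siSlc39a2 PE replicate 2. Conversely, Oasl passed without siNeg replicate 1 (adjusted p = 0.043), siNeg replicate 3 (0.0286) or siSlc39a2 replicate 3 (0.0473). Whether Oasl responded to PE more than the others in the knockdown cells was looked at with ratios between genes.

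**Figure D3:**
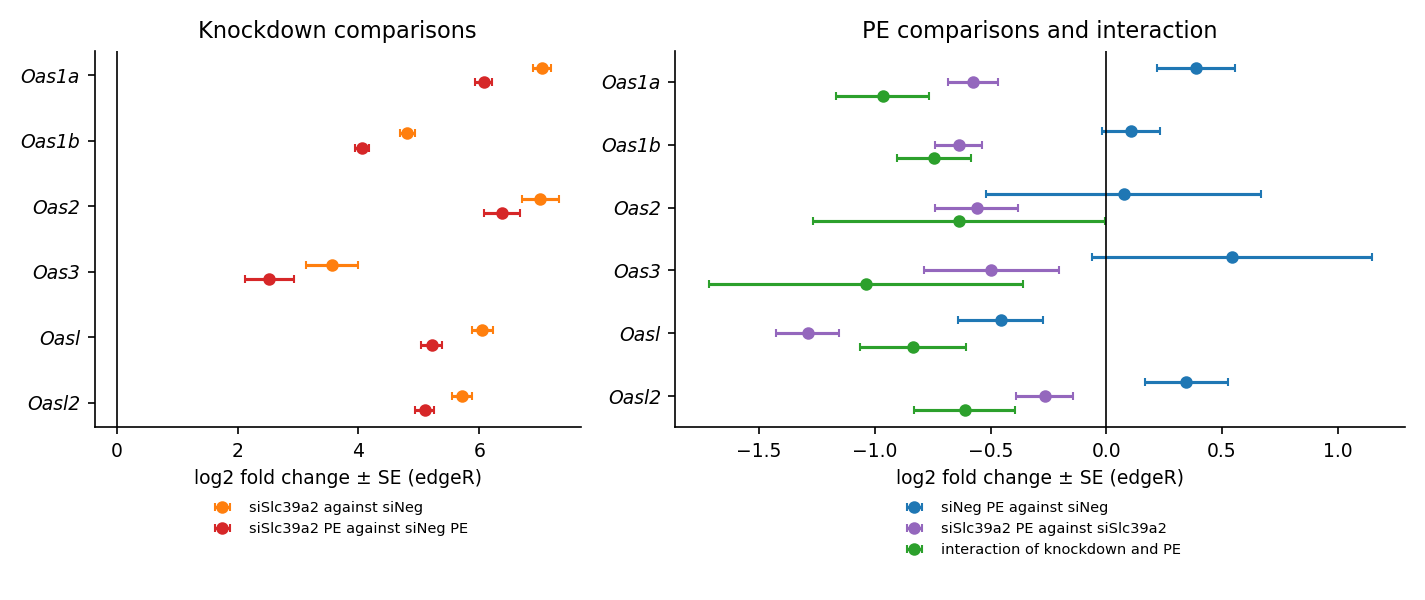
Log2 fold changes of the 6 genes with their SE from edgeR, knockdown comparisons on the left and PE comparisons with the interaction on the right. On the left all points lie above 2. On the right the purple point of Oasl, at -1.29, is the one beyond -1 among the PE comparisons.

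The ratio of Oasl to Oasl2 in FPKM was 3.07 ± 0.365 in siSlc39a2 and 1.52 ± 0.159 in siSlc39a2 PE, with no overlap between the samples. On the log2 scale the ratio fell by 1.01. The ratio of Oasl to Oas1a went from 0.885 ± 0.049 to 0.542 ± 0.0429, again with no overlap. Of the 10 pairs that 5 members form, Oas3 being too low, the siSlc39a2 and siSlc39a2 PE samples did not overlap in 5, and 4 of those 5 involved Oasl. Oasl was singled out by its change in these same samples, so its ratios restate that change and are not separate support. For each of the 5 pairs the exact two-sided permutation test gave p = 0.1, which is the smallest it can give with 3 samples against 3, and 0.2 after adjustment over the 10 pairs. In siNeg cells the ratio of Oasl to Oasl2 was 2.41 ± 0.85 without PE and 1.43 ± 0.388 with PE, where the samples overlapped. The ratio of Oasl to Oas1a was 1.92 ± 1.02 without PE and 0.991 ± 0.0676 with PE in these cells, with no overlap, as in the knockdown cells.

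The family's make-up in FPKM differed between control and knockdown cells. In siNeg, Oas1b led with 5.06 ± 1.15 FPKM, followed by Oasl with 3.97 ± 1.28, Oas1a with 2.23 ± 0.65 and Oasl2 with 1.66 ± 0.277, and neighbours in this order overlapped. Oas2 (0.0833 ± 0.0611) and Oas3 (0.0167 ± 0.00577) lay well below. In siNeg PE, Oas1b led with 5.75 ± 0.107 FPKM, clear of Oas1a (3.09 ± 0.322) and Oasl (3.05 ± 0.26), which overlapped, and of Oasl2 (2.22 ± 0.518) below them. In siSlc39a2, Oas1a led with 325 FPKM and Oasl, which overlapped it, was next with 288. Oas1b, Oasl2, Oas2 and Oas3 followed with 156, 93.9, 12.3 and 0.273 FPKM, and each of these steps was clear of overlap. In siSlc39a2 PE the order was the same, and there Oas1a and Oasl no longer overlapped.

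Summed over the 6 genes, the level was 13.0 ± 2.74 FPKM in siNeg and 14.2 ± 0.635 with PE added, against 875 ± 46.7 in siSlc39a2 and 504 ± 19.4 with PE added. Oas1b held 38.8% ± 0.714 of this sum in siNeg and 17.8% ± 0.262 in siSlc39a2, whereas Oas1a held 17.4% ± 4.77 and 37.1% ± 0.756. The share of Oasl was 30.2% ± 6.25 in siNeg and 21.4% ± 1.15 with PE added, and 32.8% ± 1.19 in siSlc39a2 and 22.5% ± 0.6 with PE added. The samples with PE lay below those without it in both the control and the knockdown cells. The order of the Oas1a and Oas1b rows was the reverse in knockdown cells, but it depends on how reads were divided, since Oas1a and Oas1g summed were above Oas1b in every siNeg sample already.

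**Figure D4:**
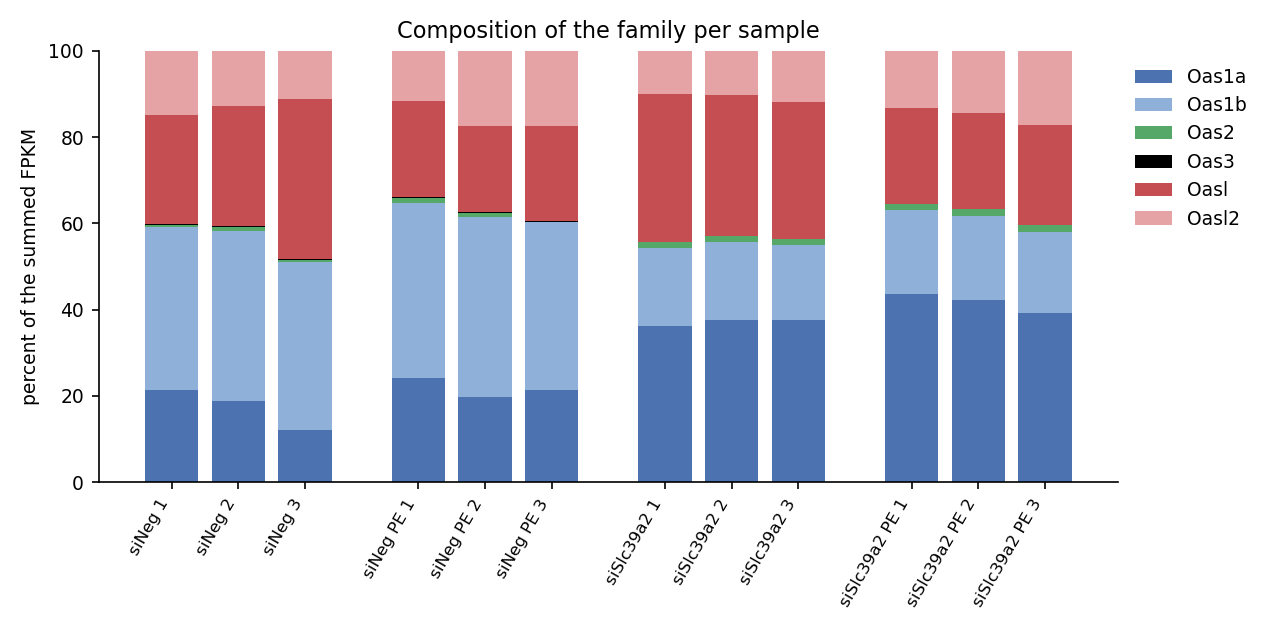
Share of each gene in the summed FPKM of the 6 genes, in percent, with 1 bar per sample. Oas1b (light blue) is the largest part in the siNeg and siNeg PE bars and Oas1a (dark blue) in the siSlc39a2 and siSlc39a2 PE bars.

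Reads shared between the copies limit what can be said of Oas1a and Oas1b apart. Expected counts that are not whole mark reads divided between genes. Counts were whole in 12 of 12 libraries for Oasl and Oas2, in 7 for Oas3, in 4 for Oasl2 and in none for Oas1a and Oas1b. The tables hold 6 further Oas1 rows. Oas1g is the large one, with 144, 175 and 160 expected counts in siNeg and 7071, 7658 and 5609 in siSlc39a2. With PE it had 264, 226 and 230 in the control and 5372, 5055 and 4981 in the knockdown cells. RefSeq (GRCr8) lists that symbol as a synonym of Oas1a. The sum of Oas1a and Oas1g was whole in 3 libraries, where neither row was whole alone, and the sum of Oas1a and Oas1b in none.

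The log2 fold change of Oas1g was 5.28 ± 0.11 without PE and 4.41 ± 0.10 with PE, and its interaction was -0.86 ± 0.14 (adjusted p = 0.00393). With PE, Oas1g changed by 0.49 ± 0.11 in siNeg cells (adjusted p = 0.00321) and by -0.38 ± 0.08 in knockdown cells (adjusted p = 0.00198). Neither pair of groups overlapped, as for 29.3% of all genes upwards in siNeg and 32.7% downwards in knockdown cells. The summed FPKM of Oas1a and Oas1g over that of Oas1b was 1.20 ± 0.205 in siNeg and 3.10 ± 0.0991 in siSlc39a2, and with PE 1.50 ± 0.162 in the control and 3.39 ± 0.105 in the knockdown cells. For Oas1a by itself the same ratio was 0.45 ± 0.128 and 2.08 ± 0.0623 without PE and 0.538 ± 0.0632 and 2.17 ± 0.0594 with it. Either way, every knockdown sample lay above every control sample, but the step was smaller for the sum. All 8 Oas1 rows summed gave log2 fold changes of 5.65 without PE and 4.77 with it.

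The other Oas1 rows were small. Oas1h had no count in the 6 control libraries, 10, 9 and 12 in siSlc39a2 and 3, 7 and 7 in siSlc39a2 PE, which is at least 3.19-fold and 1.86-fold higher against a floor of 3 counts per library. Oas1d and Oas1f had at most 2 counts in any library, and Oas1k at most 13.3. Oas1i, whose promoter is the closest to that of Oas1a, was listed at 523, 43.1 and 618 in siSlc39a2, at 0, 146 and 170 in siSlc39a2 PE, at 50.5 in 1 siNeg PE library and at 0 in the other 5 control libraries. The values of Oas1i jumped between replicates of a group and every count above 0 was fractional, so that it is given here as uncertain.

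**Figure D5:**
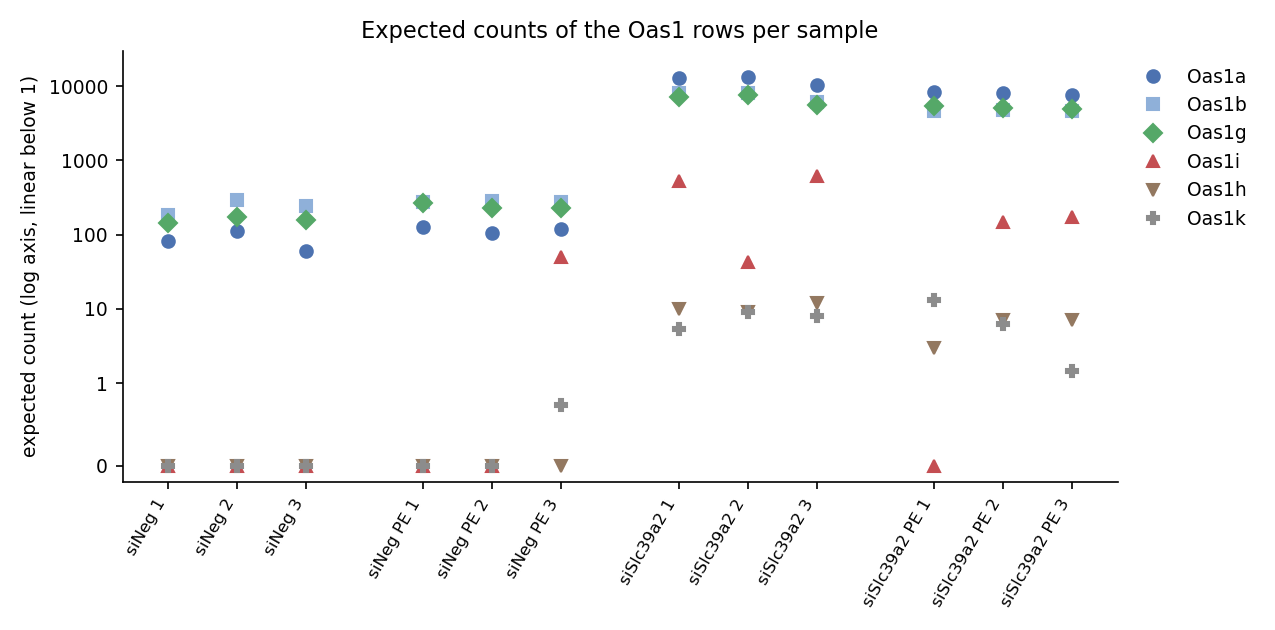
Expected counts of 6 of the 8 Oas1 rows in each library, on a log axis that is linear below 1. Oas1a (circles) is the lowest of the 3 large rows in the control libraries and the highest in the knockdown libraries, and Oas1i (triangles) scatters within its groups.

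The genes known to restrain the pathway had smaller fold changes with knockdown than the synthetases, a difference that was not tested. Abce1, an ATP-binding protein known to restrain it, had a log2 fold change of 0.53 ± 0.17 (adjusted p = 0.0219) after knockdown without PE and was called with PE, at 1.11 ± 0.17 (adjusted p = 0.000136). In the knockdown cells Abce1 rose with PE from 15.3 ± 2.72 to 38.8 ± 10.9 FPKM, a log2 fold change of 1.40 ± 0.17 (adjusted p = 2.83e-05), while Oasl fell. Abce1 rose with PE in siNeg cells as well, with a log2 fold change of 0.82 ± 0.17 (adjusted p = 0.00216). The interaction of Abce1, 0.58 ± 0.24, did not pass (adjusted p = 0.26). Pde12, a nuclease that degrades oligoadenylates, had log2 fold changes of 0.47 ± 0.12 (adjusted p = 0.00562) and 0.67 ± 0.12 (adjusted p = 0.000354) after knockdown without and with PE, both under the limit on size.

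A wider list of 33 genes, which held regulators of the pathway, sensors of double-stranded RNA, interferon signalling and the further Oas1 rows, was counted in the same way. Of these, 29 were tested. After knockdown without PE, 19 were called higher and none lower, against 4.57% higher and 5.21% lower of all genes. The median log2 fold change of the 29 was 2.10 beside -0.02 over all genes. With PE, 18 were called higher and none lower, against 6.03% higher and 5.58% lower of all genes. The median was then 2.01 beside 0.01. Of the 29, Zbp1, Ifnb1 and Oas1i were tested only through the knockdown libraries, and Oas1i, an uncertain row, is 1 of the 19. Oas1g, whose symbol is listed as a synonym of the member Oas1a, is among both the 19 and the 18. Ifnb1, the gene of interferon beta, had no count in the 6 control libraries, 246, 242 and 189 counts in siSlc39a2 and 46, 34 and 39 in siSlc39a2 PE. That is at least 68.7-fold higher without PE and at least 13.2-fold higher with PE, against 3 counts per library. Between the knockdown groups Ifnb1 fell by 2.48 on the log2 scale with PE (SE 0.20, adjusted p = 1.15e-05).

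Among the factors that act on interferon-stimulated response elements, Irf7, Stat2 and Irf9 rose, and Irf3 did not pass the test (log2 fold change 0.01, adjusted p = 0.879 without PE, and 0.17, adjusted p = 0.0569 with PE). Irf7, an interferon regulatory factor, went from 15.5 ± 1.01 to 2369 ± 274 FPKM, a log2 fold change of 7.11 ± 0.16 (adjusted p = 1.68e-12), which is close to that of Oas1a. With PE in the knockdown cells it changed by -0.78 ± 0.12 (adjusted p = 0.000153). Stat2 and Irf9 were called higher without PE, by 2.75 ± 0.07 and 2.10 ± 0.06 on the log2 scale, and with PE by 2.31 ± 0.07 and 2.01 ± 0.06. Among other sensors of double-stranded RNA, Eif2ak2, which encodes PKR, was called higher by 3.56 ± 0.23 and Ifih1, which encodes MDA5, by 4.19 ± 0.26 without PE.

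The sensors of double-stranded RNA had changes of both signs with PE in the knockdown cells. There Eif2ak2 had a log2 fold change of 0.77 ± 0.20 (adjusted p = 0.00515) and Ifih1 of 0.69 ± 0.21 (adjusted p = 0.0137), both above zero, as they were in siNeg cells with PE (0.74, adjusted p = 0.0201, and 0.96, adjusted p = 0.0116). In siSlc39a2 PE, replicate 3 was by far the highest for both genes. Eif2ak2 had 35.19, 43.86 and 69.85 FPKM in that group against 26.16 to 35.91 in siSlc39a2. Ifih1 had 19.7, 23.09 and 37.65 FPKM against 15.65 to 19.36. Dhx58, which encodes LGP2, was below zero at -0.76 ± 0.06 (adjusted p = 1.27e-06), and Ddx58 (0.20, adjusted p = 0.0585) and Tlr3 (0.24, adjusted p = 0.36) did not pass. Of the 29 genes of the list, 6 were higher and 14 lower by the adjusted p alone in this comparison, against 30.7% and 29.3% of all genes. By both limits 2 were higher, Abce1 and Cgas, against 6.34% of all genes, and 2 were lower, Ifnb1 and Zbp1, against 4.17%. In siNeg cells PE moved 1 of the 29 past both limits, Cgas, which encodes a DNA sensor and was higher. There 3.80% of all genes were called higher and 2.80% lower. For a list of 29 genes, counts this small by both limits are near the shares over all genes. Cgas, Zbp1, Irf3, Dhx58, Ddx58 and Tlr3 are named here after their values were seen. The comparisons share samples, so the values of 1 gene in several of them are not independent.

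The genes whose course over the 12 samples was nearest to each member were found by the root-mean-square difference of log2 CPM (counts scaled to library size), each gene centred on its own mean, among genes outside the family. For Oas1a these were Phf11 (0.245), Irf7 (0.303) and Isg15 (0.319). For Oas1b they were RT1-N2 (0.153), Irgm (0.194) and Igtp (0.196), and for Oasl2 they were Gbp2 (0.204), RGD1309362 (0.295) and Uba7 (0.3). Oasl had Dhx58 (0.277), RT1-T24-3 (0.29) and Cxcl10 (0.329). Oas2 had no neighbour as near, with Irf7 (0.532), Herc6 (0.533) and Phf11 (0.551), and Oas3 had Ifi27l2b (0.228), Tor3a (0.257) and Tapbpl (0.277). Within the family the nearest pair was Oas1a and Oas2 (0.52), followed by Oasl and Oasl2 (0.524) and by Oas1b and Oasl2 (0.537), while Oas1a and Oas3 were furthest apart (2.14). A prior count of 2, added before taking log2, shrinks the changes of genes with few counts. The distances and neighbours of Oas2 and Oas3 therefore depend on it.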

How the data were processed

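Total RNA of 12 NRVM cultures was sequenced. For each of 18483 genes, the authors deposited an expected count, not normalized, and an FPKM value. Per the labels, HISAT, Bowtie2 and Rnor_6.0 were used, with no roles or versions, and the counting program is not given in the sources used here. Of the expected counts 78.7% were whole within 0.005. The labels give 36 h of PE and the study's culture methods another time. The members and gene lists were chosen with earlier results of these data known.

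Counts were rounded, filtered (filterByExpr, minimum 10), normalized by TMM and fitted over all 4 groups (8 residual degrees of freedom) by the quasi-likelihood test of edgeR 4.0.16 in R 4.3.3. The fit was tested on simulated data. Values after ± are SE for log2 fold changes and SD for levels. Named genes were the members, a preset part of the 33-gene list (some of its genes are not reported here), the 3 nearest genes per member with a mean log2 CPM above 1, and Slc39a2. Alternatives were DESeq2 1.42.0, RLE, no filter, 2-group fits, unrounded counts, summed paralogs, a replicate block, limma 3.58.1 on quantile-normalized log2(FPKM + 1) and log2(FPKM + 0.1), and leaving out each library. No replicate repeated another (chi-square over degrees of freedom between replicates 4.88 to 34.9). Coordinates are GRCr8, and none of Rnor_6.0 were used.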

Additional observations from a re-analysis of the deposited data

Results flagged for a closer look

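The knockdown effect differed with PE for Oas1a and Oas1b by the interaction test of edgeR. The log2 value was -0.965 (adjusted p = 0.0189) for Oas1a and -0.745 (adjusted p = 0.0222) for Oas1b, over 3 samples in each of the 4 groups. For both genes all siSlc39a2 PE samples lay below all siSlc39a2 samples, which 32.7% of all genes also showed, while the siNeg and siNeg PE samples overlapped. With PE, Oas1a changed by -0.58 in knockdown and by 0.39 in siNeg cells on the log2 scale, and Oas1b by -0.64 and 0.11. The interaction takes in both the knockdown and the control cells. Reads of the Oas1 copies are divided between rows, and several single libraries moved either adjusted p above 0.05, as given with the result.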

How the results depend on the processing

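The 6 knockdown fold changes kept their direction and, with 1 exception, their call under each alternative, without and with PE. The exception was Oas3 in limma on log2(FPKM + 1), which understates low genes, at 0.30 without PE and 0.20 with PE (0.31 and 0.21 with all genes kept). The number of members called for PE in knockdown cells, 1, was 0 with Oas1a and Oas1b summed and Oasl and Oasl2 summed (Oasl with Oasl2 -0.91) and 4 by the adjusted p alone. The number called for the interaction, 0, was 1 with no filter on low counts, 2 by the adjusted p alone and 0 to 1 when a library was left out. For PE in siNeg cells, the sign turned for Oas1b (-0.0437 without siNeg replicate 1, range -0.0437 to 0.26 over the libraries left out), for Oas2 (-0.43 to 0.77) and for Oasl2 (-0.13 when summed with Oasl). In that comparison Oas1a passed the adjusted p under DESeq2 (0.0261) and when summed with Oas1g (0.00432) or with all Oas1 rows (0.0181), sums chosen after seeing the data, and Oasl passed under DESeq2 (0.0231) and limma (0.0195 to 0.0392). The interaction of Oas1a had adjusted p of 0.121 in limma on log2(FPKM + 0.1) and 0.0775 on log2(FPKM + 1) with all genes kept, and that of Oasl 0.00522 under DESeq2. The cause of these shifts was not tested. Same-numbered samples share a number, and whether they also share a preparation is not known. Their deviations correlated by -0.0904 to 0.32. The mean was highest for siNeg with siNeg PE, at 0.191 against -0.0947 for different numbers. It was lowest for siNeg with siSlc39a2, at 0.00614 against -0.00306. A replicate block left 6, 6, 0, 1 and 0 members called in the 2 knockdown comparisons, the 2 PE comparisons and the interaction, with Oasl2 at adjusted p = 0.0244 for PE in knockdown cells and Oasl at 0.0497 in the interaction. Depth limits Oas2 and Oas3 in the control cells, at no more than 9 counts per library.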
